A study of Mus musculus with 6 samples.

Results

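The genes described here encode the splicing machinery and the hnRNP proteins. They were chosen by symbol: Srsf, Hnrnp, Sf3a, Sf3b, Snrp, Snrnp, Prpf and Cwc genes that the array annotation pairs with a probe set of their own. The rule took no expression value into account. It found 61 genes among the 12393 on the arrays, and all 61 were among the 8627 genes that were tested, for which the mean signal had to reach 100.

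The samples were brains of Swiss Albino mouse embryos at E11.5, 1 brain per array, with 3 arrays in each group. The diabetic group held malformed brains of embryos whose mothers had been made diabetic with streptozotocin (STZ), which destroys the beta cells of the pancreas. The control group held brains of embryos from normal mothers. Malformation and maternal diabetes cannot be told apart, because every brain of the diabetic group was a malformed one. The labels do not say whether brains shared a litter, so the p-values measure only the spread between these samples.

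Splicing removes introns from pre-mRNA and joins the exons. The spliceosome, which does this, is built from small nuclear ribonucleoproteins (snRNPs), each an RNA with a ring of Sm proteins and proteins of its own, and from many further factors. SR proteins mostly bind exons and promote their inclusion, while hnRNP proteins coat nascent RNA and often oppose it. Alternative splicing is widespread in the developing brain, where progenitors and neurons use different isoforms of many genes. The arrays measured the RNA levels of the factors, and splicing itself was not measured.

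The deposited tables hold 1 intensity value, called signal here, per probe set and array. Diabetic replicates 1 and 2 and control replicates 1 and 2 stand in a first table, from 1 chip version and scanner. Diabetic replicate 3 and control replicate 3 stand in a second table, from another chip version and scanner. Every difference was therefore taken within a table. Median signals were 227, 210 and 173 on diabetic replicates 1 to 3, against 221, 222 and 165 on control replicates 1 to 3. All 11 neuron and all 10 neural progenitor markers were above the signal limit.

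Promoter sequence is shown first for 4 of the 5 genes that had an unadjusted p under 0.05 in the comparison below, those with a RefSeq promoter entry. Each is the 250 bases before the annotated start, 5′ to 3′ on the gene's strand, from RefSeq on GRCm38.p6. Srsf2 is at chr11:116853095-116853344 on the minus strand, Hnrnpa1 at chr15:103240147-103240396 on the plus strand, Prpf31 at chr7:3629735-3629984 on the plus strand, and Cwc22 at chr2:77946357-77946606 on the minus strand. Capitals mark matches, on either strand, to the CCAAT box, to the GGGCGG box bound by Sp1 and its relatives, and to the TATA box as TATAAA.
Srsf2: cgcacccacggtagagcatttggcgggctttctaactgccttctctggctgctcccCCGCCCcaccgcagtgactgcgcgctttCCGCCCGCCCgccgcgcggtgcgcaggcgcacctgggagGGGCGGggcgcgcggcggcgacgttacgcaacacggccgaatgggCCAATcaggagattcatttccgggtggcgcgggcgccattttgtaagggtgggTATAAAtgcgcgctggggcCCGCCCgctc
Hnrnpa1: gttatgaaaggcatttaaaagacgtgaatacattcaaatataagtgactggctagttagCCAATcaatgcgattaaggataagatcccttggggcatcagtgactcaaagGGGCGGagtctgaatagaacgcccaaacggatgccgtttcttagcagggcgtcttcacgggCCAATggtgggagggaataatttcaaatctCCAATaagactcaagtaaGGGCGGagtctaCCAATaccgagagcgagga
Prpf31: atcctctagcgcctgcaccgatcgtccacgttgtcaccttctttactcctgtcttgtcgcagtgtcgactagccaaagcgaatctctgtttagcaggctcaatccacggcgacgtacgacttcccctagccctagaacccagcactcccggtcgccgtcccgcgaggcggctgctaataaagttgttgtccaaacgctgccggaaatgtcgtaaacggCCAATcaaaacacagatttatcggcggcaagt
Cwc22: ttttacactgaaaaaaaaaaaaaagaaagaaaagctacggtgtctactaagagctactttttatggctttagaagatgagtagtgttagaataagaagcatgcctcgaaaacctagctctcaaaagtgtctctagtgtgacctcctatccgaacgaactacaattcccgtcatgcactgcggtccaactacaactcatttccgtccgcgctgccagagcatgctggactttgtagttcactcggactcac

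The 4 promoters differ in these letters. The Srsf2 window holds CCAAT 82 bases and TATAAA 29 bases before the start, and 5 GGGCGG matches, of which 1 pair overlaps. The Hnrnpa1 window holds 4 CCAAT and 2 GGGCGG matches, the Prpf31 window holds 1 CCAAT, and the Cwc22 window holds none of the 10 motifs searched. The number of CpG pairs was 33 for Srsf2, 11 for Hnrnpa1, 23 for Prpf31 and 10 for Cwc22.

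Of the 61 genes, 55 had a promoter entry (not Hnrnpul2, Hnrnpll, Snrnp40, Snrpb, Sf3b4 or Sf3b5), and the same windows were read for 9882 genes on the arrays. Both strands were searched. CCGGAAG, the core bound by ETS factors, was in 19 of the 55 promoters (34.5%), against 12.9% of all promoters. The shorter CGGAAG, which lies within it, was in 54.5%, against 24.1%. CCAAT was in 49.1%, against 39.8%, and GGGCGG in 69.1%, against 57.0%. TATAAA was in 10.9%, against 10.7%, CACGTG in 9.09%, against 9.19%, and TGACGTCA in 1.82%, against 2.53%. AAGATGGC was in 1.82%, against 2.13%, the NRF1 palindrome in 3.64%, against 1.49%, and the palindrome bound by ZBTB33 in 0 of the 55, against 0.830%. The median number of CpG pairs per window was 20 for the splicing genes and 15 for all. These shares are descriptions of the letters in the windows.

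The comparison asked whether RNA levels of these genes differed in malformed brains of embryos from diabetic mothers. In a limma fit with the table as a block, 0 of the 61 genes passed an adjusted p of 0.05 (Benjamini-Hochberg over 8627 genes), beside 0% of all genes tested. At an unadjusted p under 0.05, Hnrnpa1, Sf3b5 and Prpf31 were higher and Srsf2 and Cwc22 were lower. That is 4.92% higher, beside 3.73% of all genes, and 3.28% lower, beside 3.91% of all genes. Both directions together gave 8.20%, beside 7.64% of all genes, so the shares are close to those of all genes.

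A gene's groups are called not overlapping here where every diabetic array lay beyond every control array of its own table, in both tables and in 1 direction. The diabetic arrays were above in 11 of the 61 genes (18%, beside 11.3% of all genes), namely Hnrnpa1, Hnrnpc, Hnrnpd, Hnrnpll, Sf3a3, Sf3b3, Sf3b5, Snrpb, Snrpc, Snrnp40 and Prpf31. They were below in 5 (8.20%, beside 10.6% of all genes), namely Srsf2, Srsf6, Sf3b6, Prpf4b and Cwc22. The log2 change, diabetic over control, was above 0 for 39 genes and below 0 for 22. That is 63.9% above 0, beside 52.2% of all genes.

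The median log2 change of the 61 genes was 0.065, against 0.012 for all genes tested. It was 0.077 in the first and -0.042 in the second table. Values ran from -1.10 for Cwc22, which stood apart from the next lowest, -0.56 for Snrnp48, up to 0.48 for Sf3b5. The sign was the same in both tables for 33 of the 61 genes (54.1%, beside 51.5% of all genes), and 36 kept their sign with each array left out in turn. The unadjusted 95% interval lay within 2-fold either way for 59 genes and within 1.5-fold for 40. In bulk tissue such as this, fewer cells of a type and less RNA per cell cannot be told apart.

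**Figure D1:**
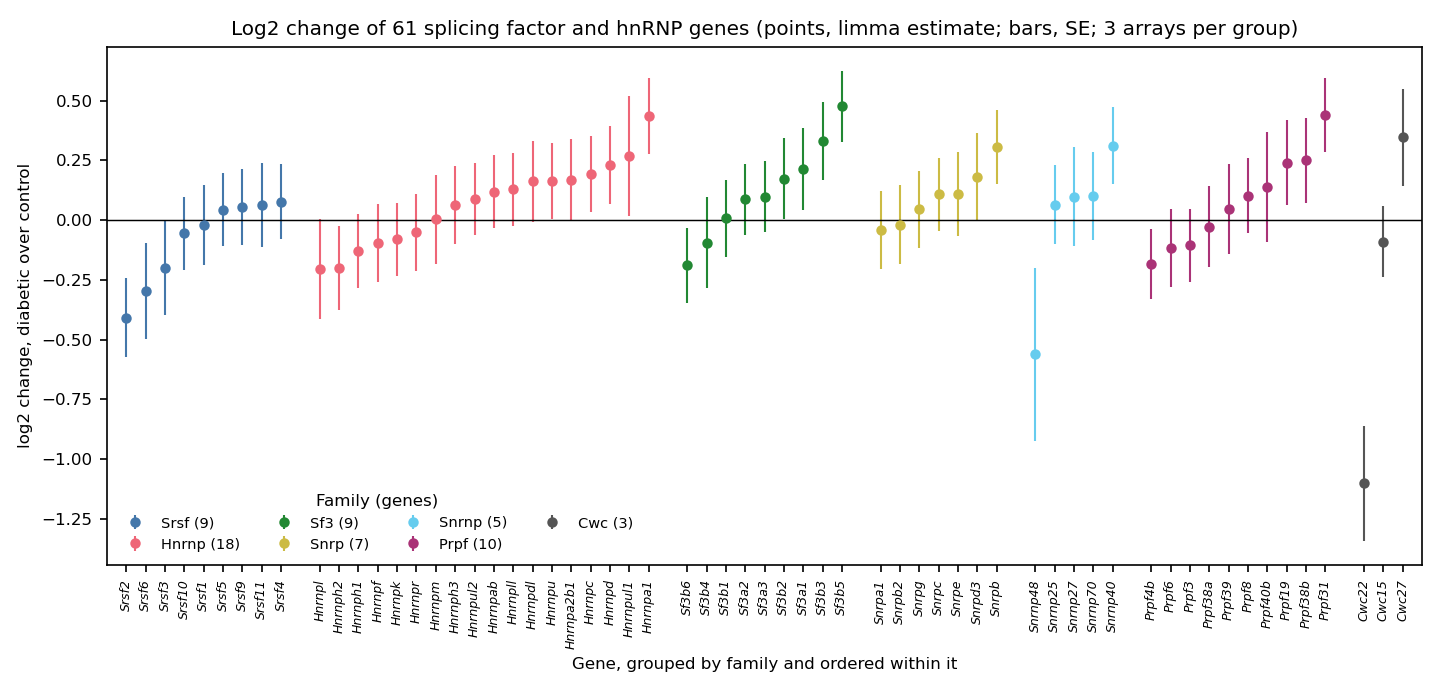
The log2 change of signal, diabetic over control, is plotted for each of the 61 genes, grouped by family and ordered within it. Points are limma estimates over 3 arrays per group and bars are standard errors. All but 6 points lie between -0.30 and 0.35, with Cwc22 at -1.10 and Snrnp48 at -0.56 below the rest.

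The Cwc genes encode proteins first found in a yeast complex with Cef1. Cwc22 is the spliceosome protein that brings Eif4a3, a core subunit of the exon junction complex, onto spliced RNA. Its signal was 199, 354 and 534 on diabetic replicates 1 to 3, against 849, 566 and 912 on control replicates 1 to 3. Each diabetic array was below the control arrays of its table. This gave a log2 change of -1.10 ± 0.24 (SE), with an unadjusted 95% interval of -1.64 to -0.56. The adjusted p from limma was 0.527, the lowest among all genes tested but shared with genes of smaller unadjusted p. In limma the smallest unadjusted p over all genes was 0.000105, against 0.00121 for Cwc22. By table the log2 change was -1.28 in the first and -0.74 in the second table, and stayed between -1.28 and -0.84 with any array left out. Cwc22 has 1 probe set, so no other probe set on the array bears on the value.

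The other Cwc genes did not share that pattern. Cwc15, a component of the spliceosome around the Prp19 complex, had signals of 875, 979 and 932 on diabetic arrays, against 999, 972 and 998 on control arrays. Its log2 change was -0.09 ± 0.15 (limma adjusted p 0.878). Cwc27, a cyclophilin-type protein of the spliceosome, had 285, 414 and 259 on diabetic arrays, against 213, 226 and 284 on control arrays. The log2 change of Cwc27 was 0.35 ± 0.20 (limma adjusted p 0.701), with 0.58 in the first and -0.12 in the second table, and from 0.14 to 0.58 with any array left out.

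SR proteins bind exonic enhancers through RNA recognition motifs and carry a tail rich in arginine and serine. Of the 9 Srsf genes, 4 had a log2 change above 0 and 5 below, with a median of -0.02. In 0 of the 9 the diabetic arrays lay above the control arrays in both tables (0%, beside 11.3% of all genes). In 2, Srsf2 and Srsf6, they lay below (22.2%, beside 10.6% of all genes). Srsf2, also called SC35, had signals of 5344, 4442 and 7474 on diabetic arrays, against 7451, 6262 and 8931 on control arrays. The diabetic arrays were lower within both tables. The log2 change came to -0.41 ± 0.16, with an interval of -0.78 to -0.04 (limma adjusted p 0.647). It was -0.48 in the first and -0.26 in the second table.

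Srsf6, which regulates exon choice in Tau among other transcripts, had 5177, 3236 and 6164 on diabetic arrays, against 5455, 5488 and 6437 on control arrays. Diabetic replicate 2 was far below the other arrays of the first table. The log2 change was -0.30 ± 0.20 (limma adjusted p 0.723), and -0.07 without diabetic replicate 2. Srsf3, the smallest SR protein, which also takes part in RNA export, had 4428, 2944 and 5905 on diabetic arrays, against 4877, 3671 and 6539 on control arrays. Here the groups overlapped in the first table, and the log2 change was -0.20 ± 0.20 (limma adjusted p 0.804). It was -0.026 without diabetic replicate 2.

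On the other side of 0, the 3 Srsf genes of smallest p were Srsf4, Srsf11 and Srsf9. Their log2 changes were 0.08 ± 0.16, 0.06 ± 0.18 and 0.05 ± 0.16. Srsf1, also called ASF or SF2, was added outside the rule for named genes, after its values were seen. It had 4581, 3659 and 9684 on diabetic arrays, against 3616, 4291 and 10910 on control arrays. Its groups overlapped and the log2 change was -0.02.

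The hnRNP genes were the largest family, with 12 log2 changes above 0 and 6 below among 18. The median was 0.10, with 0.105 in the first and -0.041 in the second table, and it was -0.023 when the median over a gene's probe sets was used. In 4 genes, Hnrnpa1, Hnrnpc, Hnrnpd and Hnrnpll, the diabetic arrays were above the control arrays in both tables, and in 0 they were below (22.2% above, beside 11.3% of all genes, and 0% below, beside 10.6%). The other probe sets of Hnrnpc and Hnrnpll went the opposite way, as given further on. Hnrnpa1, which binds splicing silencers and counteracts SR proteins, had signals of 3193, 3380 and 3083 on diabetic arrays, against 2410, 2821 and 1960 on control arrays. Each diabetic array was above the control arrays of its table. This gave a log2 change of 0.43 ± 0.16, with an interval of 0.08 to 0.79 (limma adjusted p 0.640), and 0.33 in the first and 0.65 in the second table.

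Hnrnpd, also called AUF1, which binds AU-rich elements and affects mRNA decay, had 3782, 3985 and 5353 on diabetic arrays, against 2789, 3378 and 5273 on control arrays. Its log2 change was 0.23 ± 0.16 (limma adjusted p 0.731). Hnrnpc, which binds uridine tracts of nascent RNA, had 7504, 8729 and 9184 on diabetic arrays, against 6365, 7098 and 8902 on control arrays. The log2 change of Hnrnpc was 0.19 ± 0.16 (limma adjusted p 0.761). In both genes the groups were apart mainly in the first table, and the second table's arrays were close.

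On the lower side, Hnrnph2 and Hnrnph1 encode related proteins that bind runs of G. Hnrnph2 had 1241, 1232 and 2442 on diabetic arrays, against 1130, 1550 and 3256 on control arrays, with a log2 change of -0.20 ± 0.17 (limma adjusted p 0.773). Hnrnph1 had 6039, 6676 and 8120 on diabetic arrays, against 6403, 7656 and 8749 on control arrays, with a log2 change of -0.13 ± 0.16 (limma adjusted p 0.838). The groups overlapped in the first table in both genes.

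Hnrnpl, which binds CA-rich RNA, had 1118, 1181 and 598 on diabetic arrays, against 952, 1229 and 1050 on control arrays. Its log2 change of -0.20 ± 0.21 (limma adjusted p 0.810) combined 0.08 in the first table with -0.78 in the second. Hnrnpab, which binds single-stranded nucleic acid, had 8241, 8564 and 10831 on diabetic arrays, against 7423, 7079 and 11340 on control arrays. The log2 change of Hnrnpab was 0.12 ± 0.15 (limma adjusted p 0.850), with diabetic replicate 3 below its control.

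SF3a and SF3b are the parts of the U2 snRNP that hold the branch site of the intron. Of their 9 genes, 7 had a log2 change above 0 and 2 below, with a median of 0.098, and 0.105 in the first and -0.041 in the second table. Sf3b5, the small SF3b10 subunit, had signals of 2015, 2076 and 1893 on diabetic arrays, against 1366, 1431 and 1475 on control arrays. The diabetic arrays were above the control arrays within both tables. The log2 change came to 0.48 ± 0.15, with an interval of 0.14 to 0.81 (limma adjusted p 0.591), and it stayed between 0.44 and 0.54 with any array left out.

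Sf3b3, the large SF3b130 subunit, had 2275, 2799 and 1934 on diabetic arrays, against 2103, 1795 and 1618 on control arrays. The diabetic arrays were higher within both tables. The log2 change was 0.33 ± 0.16 (limma adjusted p 0.661). Sf3a1, the scaffold of SF3a, had 1485, 1381 and 893 on diabetic arrays, against 994, 1241 and 940 on control arrays. Its log2 change was 0.21 ± 0.17 (limma adjusted p 0.753), with the second table at -0.07.

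The genes on the lower side were Sf3b6 and Sf3b4. Sf3b6, the p14 protein that lies at the branch point adenosine, had 1804, 1691 and 2247 on diabetic arrays, against 1835, 1842 and 3019 on control arrays. Its log2 change was -0.19 ± 0.16 (limma adjusted p 0.763). Sf3b4, which contacts RNA next to the branch site, had 2210, 1832 and 1829 on diabetic arrays, against 1639, 2215 and 2491 on control arrays, and its groups overlapped in the first table. Sf3b1, the subunit that clamps the branch site helix and is often mutated in human blood cancers, had 2434, 2426 and 3716 on diabetic arrays, against 2062, 2610 and 4013 on control arrays. The log2 change of Sf3b1 was 0.01 ± 0.16 (limma adjusted p 0.994).

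The Snrp genes encode Sm ring proteins and proteins of the U1 and U2 snRNPs. Of 7, 5 had a log2 change above 0 and 2 below, and the median was 0.11. It was 0.11 in the first and 0.0078 in the second table, and -0.014 without control replicate 1. Snrpb, which gives the SmB proteins of the ring, had signals of 4656, 5104 and 5061 on diabetic arrays, against 3691, 4337 and 3969 on control arrays. The diabetic arrays were above the control arrays of each table. This gave a log2 change of 0.30 ± 0.15 (limma adjusted p 0.661), with 0.28 in the first and 0.35 in the second table.

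Snrpd3, another Sm protein, had 3089, 3551 and 3118 on diabetic arrays, against 3111, 3675 and 2047 on control arrays. Its log2 change of 0.18 ± 0.18 (limma adjusted p 0.810) combined -0.03 in the first table with 0.60 in the second. Snrpc, the U1-C protein that helps U1 pair with the 5′ splice site, had 3503, 3276 and 3192 on diabetic arrays, against 3239, 2840 and 3174 on control arrays. The second table's arrays were nearly equal there, and the log2 change was 0.11 ± 0.15 (limma adjusted p 0.866). Snrpe, a further protein of the Sm ring, had 7368, 8063 and 8575 on diabetic arrays, against 5732, 7558 and 9360 on control arrays.

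The genes below 0 in that family were Snrpa1 and Snrpb2, which encode the U2-A′ and U2-B″ proteins. Their log2 changes were -0.04 ± 0.16 and -0.02 ± 0.17.

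The Snrnp genes encode proteins particular to single snRNPs. Of 5, 4 had a log2 change above 0 and 1 below, with a median of 0.098, which was -0.043 without control replicate 1. Snrnp40, a WD-repeat protein of the U5 snRNP, had signals of 1718, 1496 and 1308 on diabetic arrays, against 1150, 1434 and 1053 on control arrays. Diabetic arrays were higher within both tables, and the log2 change was 0.31 ± 0.16 (limma adjusted p 0.678). Snrnp48, a protein of the minor U11 and U12 spliceosome, had 673, 176 and 349 on diabetic arrays, against 535, 496 and 568 on control arrays. In the first table diabetic replicate 1 was the highest array and diabetic replicate 2 the lowest. The log2 change came to -0.56 ± 0.36, with an interval of -1.37 to 0.25 (limma adjusted p 0.711), and it was -0.07 without diabetic replicate 2.

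Snrnp70, the protein of the U1 snRNP that binds the first loop of its RNA, had 2113, 2447 and 1744 on diabetic arrays, against 2739, 2030 and 1307 on control arrays, with a log2 change of 0.10 ± 0.18 (limma adjusted p 0.894). Snrnp27, a protein of the tri-snRNP of U4, U5 and U6, had 3053, 2371 and 2812 on diabetic arrays, against 2014, 3264 and 2519 on control arrays. In both genes the first table's control arrays lay on either side of the diabetic arrays.

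The Prpf genes are named after yeast pre-mRNA processing mutants and take part in assembling and activating the spliceosome. Of 10, 6 had a log2 change above 0 and 4 below, with a median of 0.07, which was -0.00074 with limma array weights. Prpf31, a tri-snRNP assembly protein whose loss of function causes retinitis pigmentosa in humans, had signals of 955, 1134 and 748 on diabetic arrays, against 740, 722 and 585 on control arrays. Within both tables the diabetic arrays were above the control arrays. The log2 change was 0.44 ± 0.15, with an interval of 0.09 to 0.79 (limma adjusted p 0.612), and 0.49 in the first and 0.34 in the second table.

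Prpf19, the ubiquitin ligase that activates the spliceosome, had 2848, 3204 and 3788 on diabetic arrays, against 2053, 2952 and 3438 on control arrays. The groups overlapped in the first table and the log2 change was 0.24 ± 0.18 (limma adjusted p 0.739). Prpf38b had 993, 1169 and 1068 on diabetic arrays, against 1134, 822 and 776 on control arrays, with a log2 change of 0.25 ± 0.18 (limma adjusted p 0.735).

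Prpf4b, a kinase that phosphorylates splicing proteins, had 1051, 1098 and 1521 on diabetic arrays, against 1259, 1211 and 1706 on control arrays. The diabetic arrays were lower within both tables, by a log2 change of -0.18 ± 0.15 (limma adjusted p 0.752). Prpf6, which bridges U5 with U4 and U6, and Prpf3, a U4 and U6 protein, had log2 changes of -0.12 ± 0.16 and -0.11 ± 0.15. Prpf8, the core protein of the U5 snRNP and of the active site, had 3294, 3843 and 3568 on diabetic arrays, against 2980, 3374 and 3620 on control arrays. The log2 change of Prpf8 was 0.10 ± 0.16 (limma adjusted p 0.874).

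**Figure D2:**
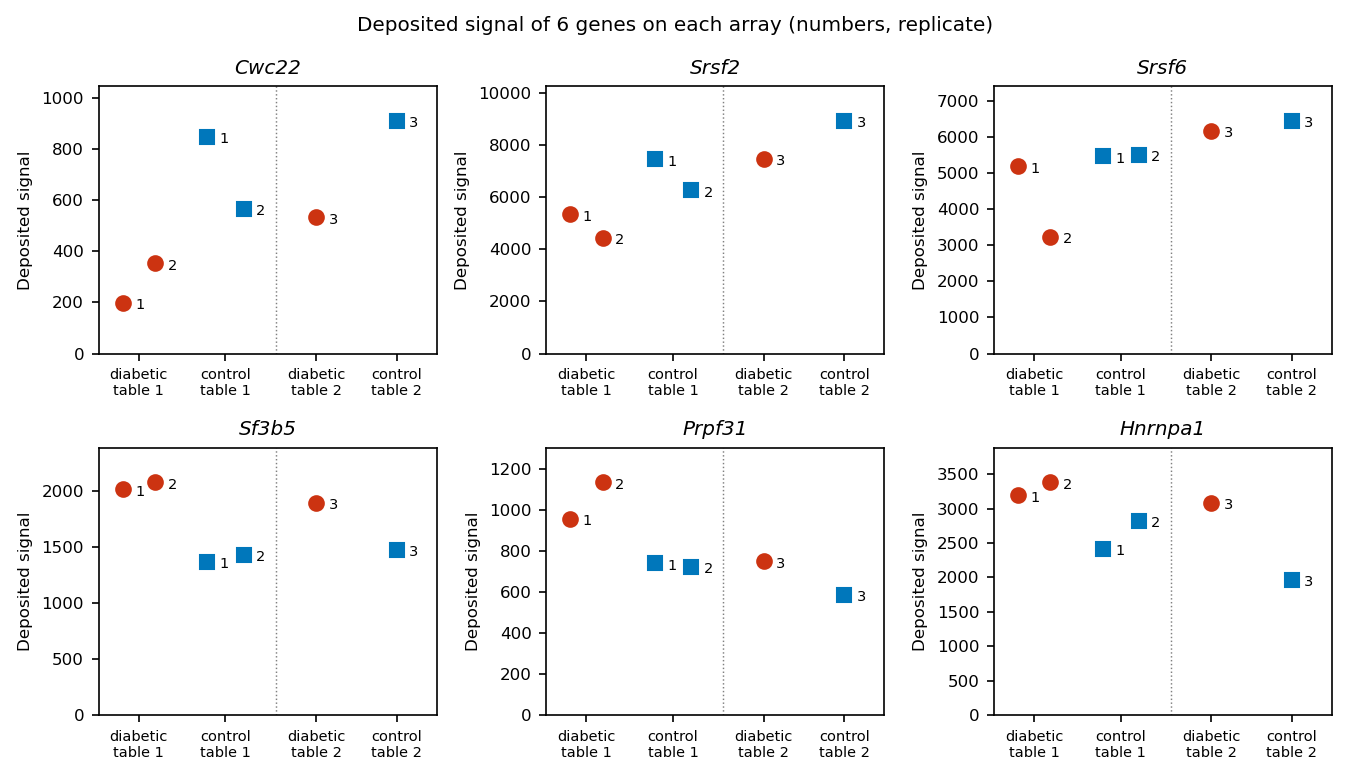
Deposited signal is plotted per array for 6 genes, diabetic arrays as circles left of control arrays as squares within each table, with replicate numbers beside the points and a dotted line between the tables. Cwc22, Srsf2 and Srsf6 are lower on diabetic arrays within each table, and Sf3b5, Prpf31 and Hnrnpa1 are higher. The genes were picked by their values, and all but Srsf6 had an unadjusted limma p under 0.05. The log2 difference of Srsf6 from the control mean was only -0.08 and -0.06 on diabetic replicates 1 and 3. Other probe sets of Srsf2 and Prpf31, not plotted here, had the opposite sign.

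The families were also read on single arrays, each diabetic array against the control mean of its table. For the hnRNP genes the median difference was 0.09 on diabetic replicate 1, 0.17 on diabetic replicate 2 and -0.041 on diabetic replicate 3. For the SF3a and SF3b genes it was 0.11, 0.11 and -0.041. The Snrnp genes were above 0 on all 3, at 0.25, 0.05 and 0.16. The median of the Cwc genes was below 0 on all 3, at -0.17, -0.01 and -0.12. With 3 genes it is the value of 1 gene, and Cwc27 was at 0.33 and 0.83 on diabetic replicates 1 and 2. In the other families the sign differed between arrays. The medians were 0.065, -0.106 and -0.091 for Srsf, -0.051, 0.211 and 0.008 for Snrp, and 0.041, -0.031 and 0.113 for Prpf.

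The control arrays of the first table differed from each other as well. Control replicate 1 minus control replicate 2 gave a median of -0.19 for the hnRNP genes, -0.22 for the Snrp genes and -0.28 for the Snrnp genes. It was -0.10 for all 61 genes, and each of these is larger in size than any diabetic value of the same set. For the Srsf, SF3a and SF3b, Prpf and Cwc genes it was -0.0087, -0.090, -0.037 and 0.038. Each of those is smaller in size than the largest diabetic value of its set. Diabetic replicates 1 and 2 are set against the mean of these control arrays, so the values are not independent. A difference between single arrays also varies more than a difference from such a mean, so these sizes are not on equal terms. Over all 61 genes, 39 were above 0 on diabetic replicate 1, 37 on diabetic replicate 2 and 27 on diabetic replicate 3.

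**Figure D3:**
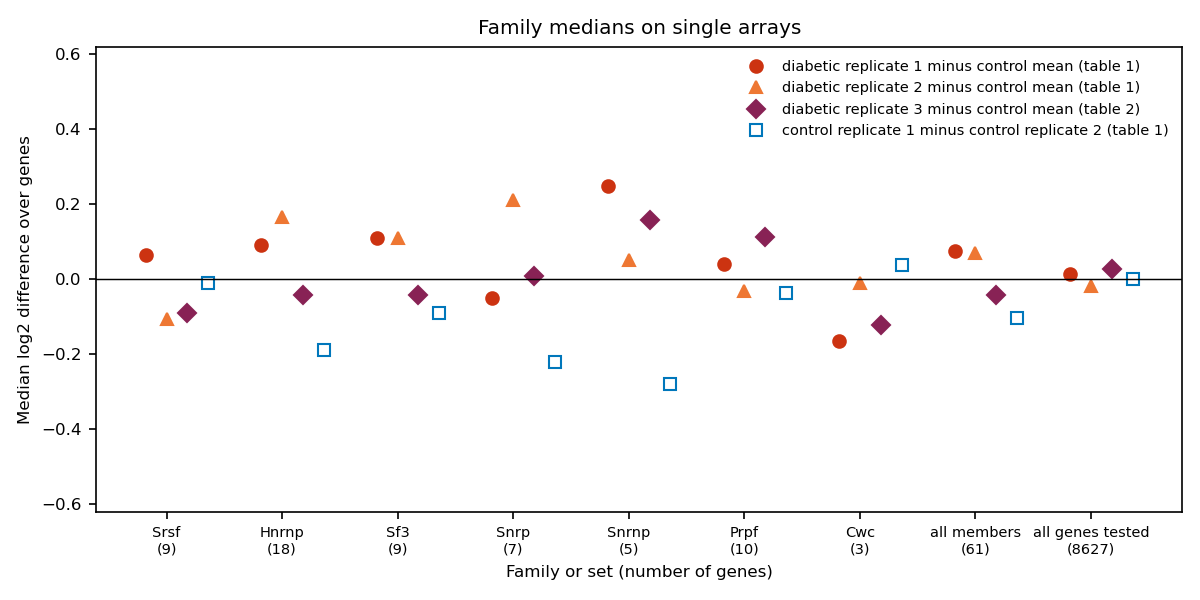
Each point is the median log2 difference over the genes of a family, for each diabetic array against the control mean of its table and for control replicate 1 minus control replicate 2. For the Hnrnp, Snrp and Snrnp families the difference between the control arrays, at -0.19, -0.22 and -0.28, is larger in size than any diabetic point of that family. For the Srsf, Sf3, Prpf and Cwc families it is smaller in size than the largest diabetic point. A difference between single arrays varies more than a difference from a mean of arrays.

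Several of these genes have more than 1 probe set, and these often disagreed. The 61 genes have 150 probe sets, of which 145 were above the signal limit, and the values above come from the probe set of highest mean signal. Of 84 further tested probe sets in 38 genes, 46 had the sign of the one used (54.8%, beside 59.8% over the genes tested). In 12 of the 38 genes all probe sets had the same sign, and in 26 at least 1 was opposite. Probe sets of a gene can read different 3′ ends or isoforms, and which applies here was not tested.

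Among the SR genes, Srsf3 had lower values on most of its other probe sets than on the one used. Of its 5 others, 4 were lower on diabetic arrays in both tables without overlap, with log2 changes of -0.40 ± 0.16, -0.49 ± 0.19, -0.53 ± 0.25 and -0.55 ± 0.22, and the fifth was at 0.02 ± 0.19. One of them had 1694, 1224 and 2823 on diabetic arrays, against 2328, 2122 and 3318 on control arrays. The others of Srsf6 were also below 0, at -0.30 and -0.17. The sign of Srsf2 differed between probe sets: its others were at 0.17 ± 0.17, 0.06 ± 0.17 and 0.90 ± 0.33, the last from 260, 600 and 121 on diabetic arrays, against 148, 129 and 119 on control arrays. With the median over its probe sets the log2 change of Srsf2 was 0.12.

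Among the 5 genes with an unadjusted p under 0.05, Cwc22 and Sf3b5 have no other tested probe set. Hnrnpa1 had others at 0.19 ± 0.21 and 0.67 ± 0.19. The smaller value combined 0.43 in the first table with -0.31 in the second, and its groups overlapped. The larger value comes from 174, 217 and 443 on diabetic arrays, against 92.2, 146 and 244 on control arrays. Hnrnpa1 has many near-identical pseudogene copies, and 3 more of its probe sets are shared with other genes and were not used. The other probe set of Prpf31 was at -0.15 ± 0.19, and the median over both gave a log2 change of 0.15.

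The probe sets of Snrnp40 differed in sign. The other one had 495, 395 and 1141 on diabetic arrays, against 1173, 870 and 1554 on control arrays, with a log2 change of -0.90 ± 0.21. Its diabetic arrays were below the control arrays within both tables, while on the probe set used they were above. Hnrnpc and Hnrnpll, a regulator of exon choice in lymphocytes, were also above on the probe set used. Their other probe sets, at -0.32 ± 0.17 and -0.16 ± 0.16, were below the control arrays within both tables. Prpf19 had others at 0.13 and 0.56, Sf3b6 at -0.16 and -0.47, and Snrnp48 at -0.01, -0.31 and -0.54.

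4 further genes were picked after their values were seen because their probe sets spread widely. Hnrnpr, which binds RNA in nucleus and axon, was at -0.05 on the probe set used and at -0.67 ± 0.16 on another, with 1531, 1357 and 3128 on diabetic arrays, against 2184, 2561 and 4764 on control arrays. Sf3b2, an SF3b subunit, was at 0.17 on the one used and at 0.61 ± 0.20, 0.49 ± 0.20 and -0.24 ± 0.16 on the others. Hnrnpa2b1, a relative of Hnrnpa1, was at 0.17 and its others at -0.37, -0.28 and -0.31. Hnrnpu, a scaffold protein of chromatin and RNA, was at 0.16 and its others at -0.36, -0.46, -0.12 and -0.31.

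**Figure D4:**
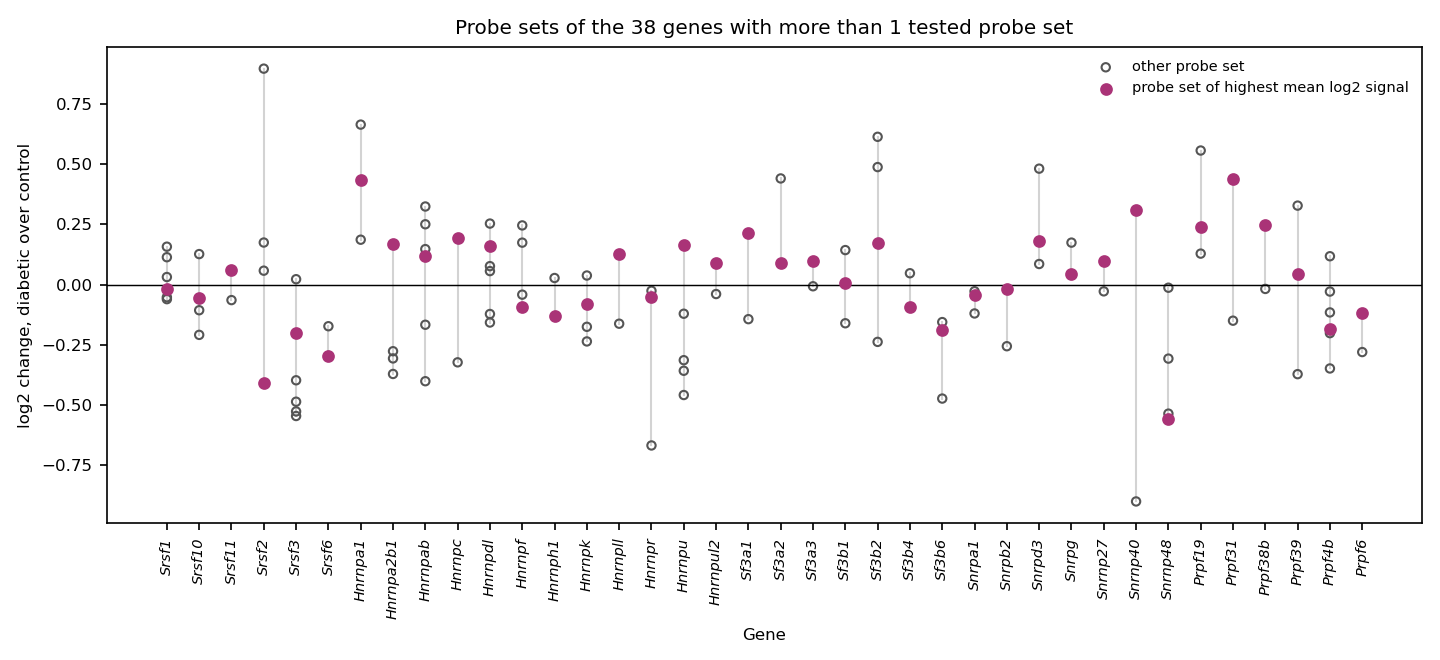
The log2 change, diabetic over control, is plotted for every tested probe set of the 38 genes with more than 1, filled for the probe set of highest mean signal and open for the others. Snrnp40 at 0.31 and -0.90 and Srsf2 at -0.41 and up to 0.90 show the widest spreads between the probe set used and another.

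The rest of the splicing machinery was read from a list of 97 further genes on the arrays, of which 91 were tested. In the limma fit 0 of the 91 passed the adjusted threshold, and at an unadjusted p under 0.05 there were 2 higher (2.20%) and 1 lower (1.10%). Diabetic arrays lay above in 11 (12.1%) and below in 7 (7.69%). The shares at an unadjusted p under 0.05 were under those of all genes (3.73% higher and 3.91% lower). Those without overlap were near or under those of all genes (11.3% above and 10.6% below). The median log2 change was 0.040, beside 0.012 for all genes, with 54 above 0 and 37 below. That is 59.3% above 0, beside 52.2% of all genes.

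Of the higher ones, Sart1, a tri-snRNP protein, had 586, 591 and 387 on diabetic arrays, against 413, 419 and 321 on control arrays, with a log2 change of 0.40 ± 0.15 (limma adjusted p 0.647). Acin1, of a complex that joins the exon junction complex, Ddx46, a helicase of branch site recognition, and Clk3, a kinase of SR proteins, had log2 changes of 0.39 ± 0.16, 0.34 ± 0.16 and 0.32 ± 0.15. With the median over its probe sets Acin1 was at 0.095. The helicases and GTPase of the spliceosome had 9 of 10 genes above 0 and a median of 0.12, and 3 of the 10 lay above without overlap (30.0%, beside 11.3% of all genes). This group was picked out of the 11 groups of the list after its values were seen, and the splicing regulators had 9 of 28 above 0.

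Of the lower ones, Srpk2, a kinase that phosphorylates SR proteins, had 431, 246 and 777 on diabetic arrays, against 885, 415 and 993 on control arrays, with a log2 change of -0.67 ± 0.29 (limma adjusted p 0.650). For Srpk2 it was -0.33 without control replicate 1, -0.41 without diabetic replicate 2 and -0.35 with the median over probe sets. Tra2a, an SR-like splicing activator, Rbm39, a relative of U2AF, and Celf2, a regulator of alternative exons, had log2 changes of -0.36 ± 0.18, -0.35 ± 0.16 and -0.32 ± 0.15.

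Cell type markers were set beside these values, with signals summed over a list. All 9 tested markers of proliferating cells had a log2 change above 0, with a median of 0.145, but the median was 0.17 in the first table alone and -0.0081 in the second. Their sums were 34724 and 38615 on diabetic arrays of the first table, against 31091 and 33863 on its control arrays, and 35802 on the diabetic array of the second, against 34720 on its control array. Of 11 neuron markers, 10 were below 0, with a median of -0.27, but the median was -0.51 in the first table alone and 0.061 in the second. Neuron sums were 11940 and 8375 on diabetic arrays of the first table, against 15231 and 14881 on its control arrays, and 18665 on the diabetic array of the second, against 16666 on its control array. The lower neuron values thus stand in the first table.

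Of 10 mesenchyme and meninges markers, all were below 0, with medians of -0.23 in the first table alone and -0.28 in the second. Their sums were 12959 and 12357 on diabetic arrays of the first table, against 14595 and 15395 on its control arrays. In the second table they were 15422 on the diabetic array, against 18168 on the control array. Of 10 progenitor markers, 6 were above 0, with medians of 0.027 in the first table alone and 0.30 in the second. Progenitor sums were 26434 and 26046 on diabetic arrays of the first table, against 22408 and 26876 on its control arrays. In the second table they were 25797 on the diabetic array, against 23437 on the control array. The median was -0.002 for endothelium (2 of 5 above 0), 0.163 for erythroid cells (4 of 5) and -0.265 for macrophages (1 of 4). Their part in the results for splicing genes was not tested.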

How the data were processed

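Total RNA of 6 embryonic brains was hybridised to Affymetrix arrays. The deposited values are linear intensity (signal) per probe set, in 2 tables on chips MOE430A and Mouse430A_2, per the file headers. Per the submitters' processing notes the software was GCOS; which version, algorithm or settings were used is not given in the sources used for the analysis. Each array had been scaled by the authors to a trimmed mean near 500, as the deposited values show.

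Probe sets naming 1 gene (20380 of 22690) were used. Hnrnpa3, Snrpa, Snrpd1, Snrpd2 and the pseudogene Hnrnpa1l2-ps2 lie only on probe sets shared with other genes and have no value here. Each array was brought to a trimmed mean of exactly 500 (2% off each end), a step of at most 0.0363%, before taking log2(signal + 32), a scale that understates changes of low signals. The probe set of highest mean log2 signal stood for each gene. Genes whose mean signal reached 100 entered a fit in limma 3.58.1, run under R 4.3.3 (functions lmFit and eBayes, two-sided, Benjamini-Hochberg over 8627 genes, threshold 0.05), with the table as a block. Residual degrees of freedom were 3, with a prior of 6.48. In all, 659 genes had an unadjusted p under 0.05. Arrays give no counting depth, so their number limits the precision: the median standard error was 0.17, and 0.163 for the 61 genes. The fit was tested on simulated data.

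Groups and replicate numbers came from the sample titles. Same-numbered arrays are not stated to share a litter or day. The genes and lists were chosen with earlier results of these data known. Genes named with values are, per family, the 3 of smallest p on each side and the one of highest mean signal, those with an unadjusted p under 0.05, and 4 other splicing genes on each side; the rest are said to be picked by value, or belong to the count of genes whose groups did not overlap. Alternatives were the pseudocount, the signal limit, the normalization, the choice of probe set, array weights, the block, each table alone and leaving out each array. Promoters were read from RefSeq windows on GRCm38.p6. Protein sequences were not analysed here.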

Additional observations from a re-analysis of the deposited data

How the results depend on the processing

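Of the 17 alternatives run, the second table alone allowed no test. In the rest, 0 of the 61 genes passed the adjusted threshold. Of the log2 changes of named genes, 753 kept and 46 turned their sign, and of the counts and medians 226 stayed within their limits and 25 did not. The cause of each move was not tested, except that a table or array left out leaves fewer arrays to separate. With the replicate number as a block (replicate block), 3 genes were higher and 2 lower at an unadjusted p under 0.05, as before. The counts of 11 and 5 without overlap and the median of 0.065 could not move. In this balanced design that block changes only the p-values, not the log2 changes or the separation within tables. The labels do not say that the numbers pair the arrays. Same-numbered arrays of the first table had a correlation of deviations of -0.0091 over genes. That value rests on 2 arrays per group and cannot decide whether arrays were paired, and replicate 3 is the whole second table.

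With the median over probe sets, 1 gene was higher at an unadjusted p under 0.05, 9 lay below without overlap and the hnRNP median was -0.023. Log2 changes turned to -0.00087 for Srsf11, 0.12 for Srsf2, -0.065 for Hnrnpc, -0.028 for Hnrnpab, 0.0041 for Snrpa1 and -0.30 for Snrnp40. With array weights the Prpf median was -0.00074 and Sf3b1 was at -0.034. In the first table alone, which equals leaving out replicate 3 of either group, 17 genes lay above without overlap and the median of the other splicing genes was 0.080. Srsf9 was at -0.068, Hnrnpl at 0.085, Sf3b4 at 0.077, Snrpd3 at -0.030, Snrpa1 at 0.054 and Snrnp70 at -0.052. In the second table alone, with 1 array per group and no test, 27 genes lay above and 34 below, which there is only the sign of the difference. No share over all genes was taken under these settings. Their counts without overlap are therefore no result about the splicing genes. Medians were -0.042 for the 61 genes, -0.041 for hnRNP, -0.041 for Sf3 and -0.0014 for the other splicing genes. Srsf4 was at -0.055, Srsf11 at -0.28, Hnrnpab at -0.066, Sf3a1 at -0.072, Sf3b1 at -0.11, Snrpb2 at 0.24, Snrpe at -0.13, Prpf6 at 0.087, Prpf8 at -0.021 and Cwc27 at -0.12.

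With each array left out in turn, 13 to 17 genes lay above and 7 to 13 below without overlap, 13 without control replicate 1. Fewer arrays are more easily apart in any gene, and no share over all genes was taken here either. At an unadjusted p under 0.05, 1 to 3 were lower, and 1 without control replicate 1, control replicate 2 or diabetic replicate 2. The median of the other splicing genes was 0.026 to 0.080 and of the Snrnp genes -0.043 to 0.12. Values spanned 0 for Sf3b1 (-0.11 to 0.086), Snrpa1 (-0.16 to 0.054), Srsf9 (-0.068 to 0.12), Srsf11 (-0.075 to 0.23), Snrpb2 (-0.15 to 0.080), Hnrnpl (-0.39 to 0.085), Sf3b4 (-0.27 to 0.077), Snrpd3 (-0.030 to 0.31), Snrnp70 (-0.052 to 0.27), Srsf4 (-0.0011 to 0.14), Snrnp27 (-0.090 to 0.30) and Snrpe (-0.038 to 0.23). All 61 genes had a mean signal of 249 or more; precision is limited by how few arrays there are.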

Other observations

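The 28 tested regulators of alternative splicing outside these families had 9 log2 changes above 0 and 19 below, with a median of -0.075. That is 32.1% above 0, beside 52.2% of all genes, and the group was singled out after its values were seen. On diabetic replicates 1 to 3, 17, 13 and 11 of the 28 were above 0, with medians of 0.039, -0.130 and -0.105. Control replicate 1 minus control replicate 2 gave a median of -0.125. In 3 of them (Rbm39, Celf2 and Celf4) the diabetic arrays lay below the control arrays in both tables (10.7%, beside 10.6% of all genes). The members given here besides Celf2 and Rbm39 were chosen after their values were seen. Ptbp1, which represses neuronal exons in progenitors, had signals of 5352, 6267 and 5025 on diabetic arrays, against 4938, 5423 and 3804 on control arrays, with a log2 change of 0.24 ± 0.16. Its neuronal relative Ptbp2 had 2992, 3648 and 4735 on diabetic arrays, against 3441, 3733 and 4628 on control arrays, with a log2 change of -0.07 ± 0.16. Nova1, a neuronal splicing regulator, had 575, 420 and 524 on diabetic arrays, against 713, 719 and 357 on control arrays, and its log2 change was -0.51 in the first and 0.51 in the second table. Celf4, enriched in neurons, had 142, 161 and 265 on diabetic arrays, against 250, 210 and 265 on control arrays, so that its second-table difference was only -0.0014. The log2 changes of Mbnl1, Celf1 and Qk were -0.10 ± 0.19, -0.23 ± 0.19 and -0.16 ± 0.17. Also above 0 were Raly at 0.47 ± 0.25, the largest of the group in size, Nono at 0.21 ± 0.16 and Rbfox2 at 0.13 ± 0.22. Of the neuron markers 10 of 11 were below 0, with a median of -0.51 in the first table alone and 0.061 in the second, and their part in these values was not tested.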
